A study of Homo sapiens with 6 samples.

Results

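PC9 cells given a control virus and no drug were divided into cells with a high and cells with a low level of S phase transcripts, and all other genes were compared between these groups. PC9 is an established human non-small cell lung carcinoma line. The cells came from the 1 scrambled library, in which 222 of 706 deposited barcodes held at least 1000 unique molecular identifiers (UMIs, the tags that count single RNA molecules) and at most 20% mitochondrial UMIs. A panel of 14 genes chose the groups: PCNA, TYMS, MCM2, MCM3, MCM4, MCM5, MCM6, MCM7, GINS2, RRM2, FEN1, HELLS, CLSPN and UHRF1. The cells were selected on the panel genes' own UMIs: the 111 cells whose panel share of UMIs lay above the median are called high and the other 111 low. Across all 6 libraries of the study, 1769 of 5795 barcodes met the same filters.

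The study profiled PC9 by Drop-seq, which barcodes the RNA of single cells in droplets, with 1 library per condition. The scrambled cells had been transduced with pLVTHM-shsc-GFP, a lentivirus encoding a scrambled short hairpin RNA (shRNA), and received no erlotinib; how many of the profiled cells carried the virus is not given in the sources used here. The untreated cells, used here for comparison, had received neither virus nor erlotinib. The labels give 5% serum for growth and 10% serum after transduction, so virus and serum cannot be told apart between these libraries. The remaining 4 libraries had 2 µM erlotinib (a drug that blocks the EGFR kinase) for 1 day. They carried pLVTHM-shKDM5A-GFP, that vector with pLVTHM-shKDM5B-GFP, or pLenti-CMV-Hygro-3xFLAG-HA-KDM5A, a cDNA driven by the CMV promoter, or had 6.25 µM CPI-455, a KDM5 inhibitor, for 4 days. KDM5A and KDM5B are demethylases of histone H3 lysine 4. High and low cells share 1 culture, virus and library, so the comparison has no replicate and no test, and intervals given in parentheses are exact 95% intervals for counting error only.

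In S phase the cell copies its genome. MCM2 to MCM7 form the hexameric helicase that is loaded onto origins in G1 and unwinds DNA at the fork, the GINS complex (GINS2 here) activates it, and PCNA is the sliding clamp that holds the polymerases on DNA. TYMS and RRM2 supply deoxynucleotides, FEN1 trims Okazaki fragments, CLSPN signals stalled forks, and HELLS and UHRF1 act in DNA methylation. Transcription of most of these genes is driven by E2F factors once cyclin-dependent kinases inactivate RB at the G1/S boundary. Genes of G2 and mitosis, such as PLK1 and CCNB1, are switched on later, and many carry CCAAT boxes and a cell cycle homology region (CHR) near the start site.

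The promoters of 3 panel genes are shown because an E2F-type match lies in each of them. Every stretch is the 250 bases before the start site in RefSeq (GRCh38.p14, whereas the deposited counts used hg19), written 5′ to 3′ in the direction of the gene. PCNA lies at chr20:5126623-5126872, minus strand, TYMS at chr18:657403-657652, plus strand, and MCM3 at chr6:52284743-52284992, minus strand. Capitals mark TTTCCCGC, TTTGGCGC, TTTCGCGC or TTTGCCGC on either strand.
PCNA: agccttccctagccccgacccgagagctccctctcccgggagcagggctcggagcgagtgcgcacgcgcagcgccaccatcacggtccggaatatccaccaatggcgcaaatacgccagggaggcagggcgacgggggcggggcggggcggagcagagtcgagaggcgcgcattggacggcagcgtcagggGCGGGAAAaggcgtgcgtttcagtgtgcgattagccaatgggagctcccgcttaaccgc
TYMS: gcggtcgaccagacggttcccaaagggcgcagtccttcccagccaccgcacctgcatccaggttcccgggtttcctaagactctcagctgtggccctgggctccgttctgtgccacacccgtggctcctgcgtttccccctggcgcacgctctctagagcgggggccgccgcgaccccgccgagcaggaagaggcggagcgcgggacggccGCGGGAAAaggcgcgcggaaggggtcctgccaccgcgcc
MCM3: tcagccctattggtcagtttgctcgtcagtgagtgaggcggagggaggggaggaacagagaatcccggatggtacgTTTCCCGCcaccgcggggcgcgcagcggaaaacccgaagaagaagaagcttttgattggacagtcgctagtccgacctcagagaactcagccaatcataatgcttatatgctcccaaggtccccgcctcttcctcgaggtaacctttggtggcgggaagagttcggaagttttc

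The promoters of 3 genes that were far lower in the high cells are shown beside them, because CHR-type letters and CCAAT both lie in each. PLK1 lies at chr16:23678639-23678888, plus strand, HMMR at chr5:163460382-163460631, plus strand, and ASPM at chr1:197146670-197146919, minus strand. Capitals mark CHR-type letters (TTTGAA or TTCGAA) and CCAAT, each on either strand, and neighbouring matches run together in HMMR.
PLK1: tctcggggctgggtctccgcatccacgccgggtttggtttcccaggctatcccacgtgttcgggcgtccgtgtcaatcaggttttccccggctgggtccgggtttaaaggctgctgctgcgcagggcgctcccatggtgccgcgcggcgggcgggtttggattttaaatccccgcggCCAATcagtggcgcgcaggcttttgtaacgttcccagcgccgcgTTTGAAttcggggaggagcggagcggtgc
HMMR: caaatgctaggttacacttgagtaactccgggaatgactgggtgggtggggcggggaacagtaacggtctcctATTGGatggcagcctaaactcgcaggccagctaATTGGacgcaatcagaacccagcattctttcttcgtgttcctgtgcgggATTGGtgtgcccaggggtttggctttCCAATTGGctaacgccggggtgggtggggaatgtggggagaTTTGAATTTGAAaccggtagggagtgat
ASPM: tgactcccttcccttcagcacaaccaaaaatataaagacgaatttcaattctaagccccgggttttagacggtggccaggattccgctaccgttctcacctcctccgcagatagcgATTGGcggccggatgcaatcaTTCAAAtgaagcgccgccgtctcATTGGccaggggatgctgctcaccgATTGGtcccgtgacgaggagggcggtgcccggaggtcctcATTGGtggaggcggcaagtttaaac

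Over the window from 250 bases before to 50 bases after the start, E2F-type letters stood in 10 of 12 panel promoters found in the RefSeq table (83.3%). The lists of replication, licensing, repair and chromatin genes outside the panel held them in 20 of 67 promoters (29.9%). Over all 27305 promoters of the table the share was 3.33%, and over the genes measured here it was 6.26%. CHR-type letters stood in 39 of 54 promoters of the G2/M list (72.2%), in 8 of 11 of the 12 lowest genes named below, and in 16.6% of all promoters. CCAAT was likewise found in 39 of 54 G2/M promoters, in 10 of 11 of the lowest genes and in 35.7% of all promoters. Of the 12 highest genes outside the panel, 0 of 10 matched promoters held E2F-type letters, which says only that these letters are not in that window. Of the genes lower past the fold, 35 of 164 matched promoters held CHR-type letters (21.3%), against 11.3% over the genes measured. CCAAT stood in 67 of these 164 (40.9%, against 37.3%) and E2F-type letters in 11 (6.71%, against 6.26%), both near the share over the genes measured. A match describes letters and is no evidence of binding.

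The high cells held 663850 UMIs and the low cells 602130, with medians of 4883 and 3735 UMIs per cell and 2404 and 1928 genes per cell. High cells were therefore the deeper ones as a group, though depth did not rise over all quartiles of the panel share. The median mitochondrial share was 4.38% in high and 4.79% in low cells. A count of 0 allows up to 4.52 CPM (UMIs of a gene per 1000000 UMIs) in the high and 4.98 CPM in the low cells, taking 3 counts as the limit. No barcode was shared between libraries, and 4 of the 222 barcodes shared their first 11 letters with another of the same library. In the untreated library this held for 297 of 822, so its values are also given with such barcodes merged where that matters. Doublets were not called. Among markers of other cell types, 8 of 10 immune, 5 of 7 fibroblast, 3 of 5 endothelial and all 4 red cell markers were at 0 or not listed, and the most frequent was CD68 with 54 UMIs (summed immune markers 37.7 CPM in high and 49.8 CPM in low cells). The summed fibroblast markers had 1 UMI in each group and the endothelial ones 6 in the high and 0 in the low group.

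The panel made up between 0 and 5833 CPM of a scrambled cell, with quartiles at 1594, 2453 and 3478 CPM. Only 7 of 222 cells had no panel UMI at all, and the median cell had 10. The division ran through a continuous range: 43 cells lay within 10% of the boundary. The last low cells stood at 2443, 2447 and 2449 CPM, with 14 of 5731, 5 of 2043 and 6 of 2450 UMIs, and the first high cells at 2458, 2489 and 2505 CPM, with 12 of 4883, 40 of 16068 and 5 of 1996 UMIs. High and low thus name ranges of 1 score. With a median of 10 panel UMIs per cell, counting error blurs the score, so it cannot show whether separate kinds of cell exist.

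Every panel gene was higher in the high cells, which the choice of cells favours, so these values only describe the groups. PCNA stood at 744 against 312 CPM, a ratio of 2.38. TYMS, which makes thymidylate, stood at 354 against 196 CPM (1.81). The helicase subunit MCM4 stood at 268 against 148 CPM (1.81). The spread over the panel ran from 1.62 for MCM3 to 2.96 for MCM2, with CLSPN at 2.93 and GINS2 at 2.90 near the top. MCM7 and MCM6 had ratios of 2.27 and 2.18, MCM5 had 1.81, RRM2 2.44, FEN1 2.05 and HELLS 1.76. UHRF1 rested on 18 UMIs in all and has no usable ratio of its own.

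Reads that had no part in choosing the cells gave smaller differences. When each cell's UMIs were split at random into 2 parts and 1 part chose the cells, the panel ratio on the other part was 1.55 (1.40 to 1.71), and with the parts exchanged it was 1.48 (1.34 to 1.65). With the panel genes divided by their order, 7 that chose the cells left a ratio of 1.60 (1.44 to 1.78) for the other 7, and the reverse gave 1.49 (1.35 to 1.64). The ratio over all reads, which includes the noise of the choice, was 2.14. On the unused part of the reads, CLSPN kept 2.27 (1.52 to 3.44), MCM2 2.03 (1.2 to 3.53), TYMS 1.69 (1.24 to 2.33), MCM4 1.51 (1.06 to 2.16) and PCNA 1.44 (1.17 to 1.79). The intervals of MCM3, MCM5, HELLS, RRM2 and FEN1 included 1 there, at 1.23, 1.15, 1.19, 1.47 and 1.45. The 3 genes that mark these cells by name, PCNA, MCM4 and TYMS, were thus higher in the high cells on unused reads too.

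**Figure D1:**
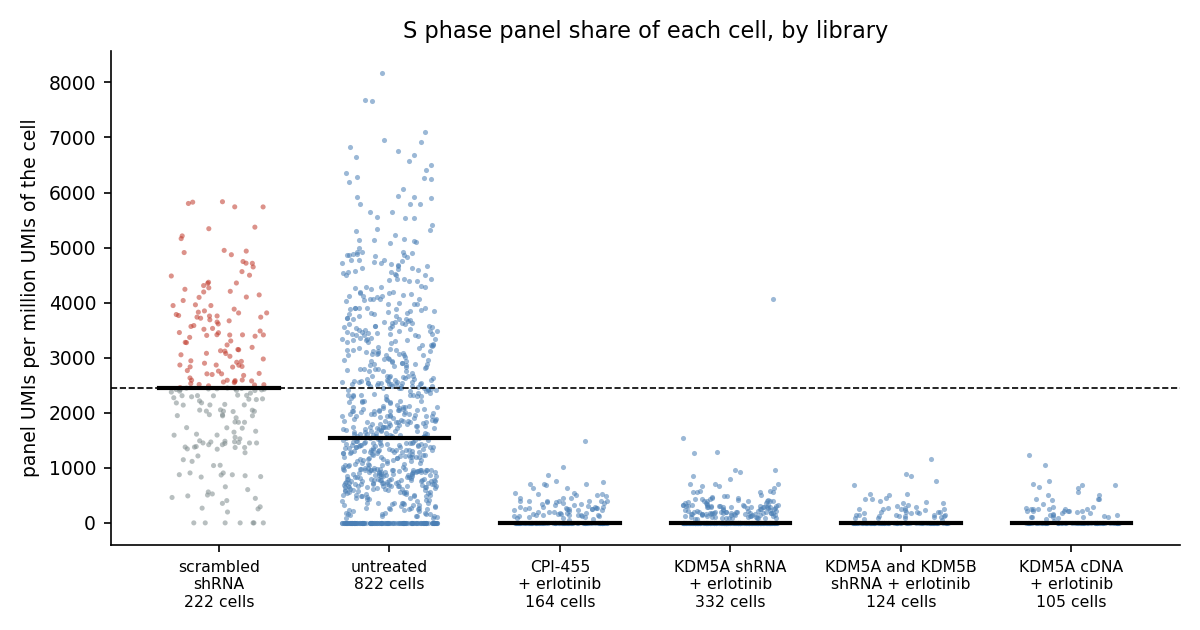
Panel share of UMIs per cell (CPM) in each of the 6 libraries, 1 point per cell (scrambled high cells in red and low cells in grey), with a bar at each library's median and a dashed line at the scrambled median. The scrambled cells have a median of 2453 CPM and the untreated cells 1542 CPM, whereas the median is 0 in the 4 erlotinib libraries.

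Outside the panel, genes with at least 50 UMIs over both groups were compared by the ratio of their pooled CPM in high to low cells, and a ratio of at least 1.5 or at most 1/1.5 is called past the fold. Of 4382 such genes, 196 were higher past the fold (4.47%) and 199 were lower (4.54%), together 9.01%, and the median ratio was 1.00. The interval left out 1 for 132 of the 196 and 135 of the 199, and for 478 of all 4382. The depth is thin for single genes: at 30 against 20 UMIs a gene has a ratio of 1.36 with an interval of 0.748 to 2.53. Most genes past the fold belonged to none of the lists (29 and 27 did), with 20 of the 196 higher genes in the licensing, fork, repair, chromatin and nucleotide lists and 19 of the 199 lower ones in the G2/M list.

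**Figure D2:**
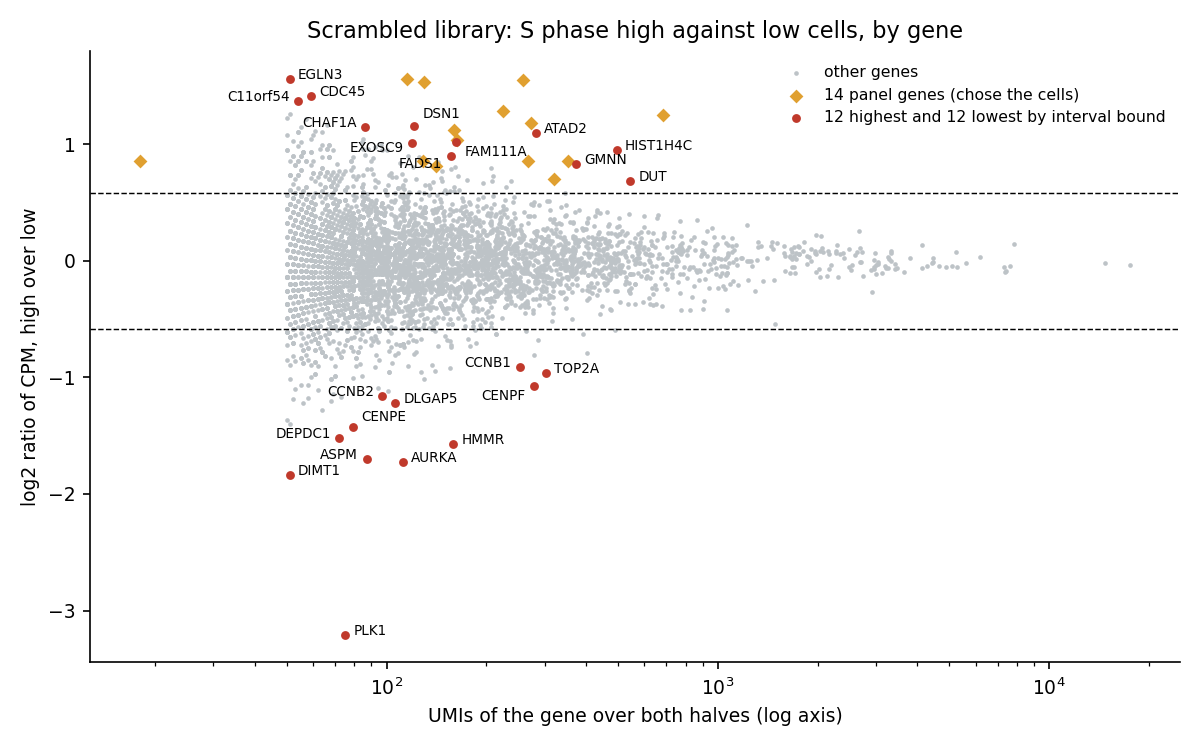
Log2 ratio of pooled CPM in high over low cells for each gene with at least 50 UMIs, against its UMIs over both groups on a log axis; diamonds are the 14 panel genes that chose the cells, and dashed lines mark a ratio of 1.5 in either direction. Red points are the 12 highest and 12 lowest genes by the interval bound nearest 1, with ATAD2 and HIST1H4C on the high side and PLK1 far below every other gene.

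Of the 12 genes highest in the high cells, 6 belonged to the licensing, fork, chromatin, nucleotide or histone lists. The 12 are named by the interval bound nearest 1, which favours well-counted genes. ATAD2, a bromodomain ATPase found at replicating chromatin, stood at 298 against 139.5 CPM, a ratio of 2.14 (1.65 to 2.79). HIST1H4C, a replication-dependent histone H4 gene, stood at 508 against 262 CPM, a ratio of 1.93 (1.60 to 2.35). CDC45, which joins MCM and GINS in the active helicase, stood at 66.3 against 24.9 CPM, a ratio of 2.66 (1.45 to 5.15). CHAF1A, the large subunit of chromatin assembly factor 1, stood at 91.9 against 41.5 CPM, a ratio of 2.21 (1.37 to 3.68). On unused reads CHAF1A had a ratio of 0.854, so its direction depended on which reads were taken. The other 3 kept ratios above 1 under every alternative run.

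The other genes among the 12 were mixed in role. GMNN, the geminin that blocks a second licensing of origins, stood at 372 against 209 CPM, a ratio of 1.78 (1.43 to 2.22). DUT, which keeps uracil out of the nucleotide pool, stood at 523 against 326 CPM, a ratio of 1.61 (1.34 to 1.92). FAM111A, a PCNA-binding protease, stood at 169 against 83.0 CPM, a ratio of 2.03 (1.44 to 2.90). DSN1, a kinetochore protein, had a ratio of 2.23 (1.49 to 3.40), and EXOSC9, a subunit of the RNA exosome, had 2.01 (1.35 to 3.05). After thinning, the ratio of DSN1 was 0.754, and on unused reads that of EXOSC9 was 0.985. FADS1, a fatty acid desaturase, had 1.87 (1.32 to 2.66). All 6 of these were also above 1 in the untreated library under the same division, at 2.16, 1.59, 1.73, 2.67, 1.66 and 1.40 in that order.

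Of the 12 highest genes, 2 were below 1 in the untreated cells, both with intervals there that include 1. EGLN3, a prolyl hydroxylase that acts on hypoxia-inducible factors, stood at 58.7 against 19.9 CPM in the scrambled library, a ratio of 2.95 (1.51 to 6.18). In the untreated library EGLN3 stood at 14.4 against 21.5 CPM, a ratio of 0.668 (0.395 to 1.12). C11orf54 stood at 60.3 against 23.3 CPM in scrambled cells, a ratio of 2.59 (1.38 to 5.16). In untreated cells it stood at 37.5 against 40.3 CPM, a ratio of 0.932 (0.663 to 1.31). Both rest on few reads, 51 and 54 UMIs in all, and whether the libraries differ for them was not tested.

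Licensing and firing of origins was the list with the largest pooled difference. Summed over its 14 members the level was 1321 against 835 CPM, a ratio of 1.58 (1.42 to 1.77). Of 11 members with enough reads, 5 were higher past the fold and none lower, against 4.47% of all genes, with a median ratio of 1.48. These were CDC45, GMNN, CDC6, GINS1 and GINS4. CDC6, the loader of the MCM helicase, stood at 155 against 89.7 CPM, a ratio of 1.73 (1.23 to 2.45), and GINS1 had a ratio of 1.81 (1.11 to 3.03). The licensing factor CDT1 had 1.42 (0.961 to 2.13) and MCM10 1.46 (0.991 to 2.18), both below the fold with intervals that include 1. DBF4, the activator of the CDC7 kinase, was the only tested member below 1, at 0.862 (0.591 to 1.26).

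The replication fork followed. The summed level of its list was 2695 against 1919.8 CPM, a ratio of 1.40 (1.30 to 1.51). Of 19 members with enough reads, 7 were higher past the fold and none lower, against 4.47% of all genes, with a median ratio of 1.37. They were ATAD2, FAM111B, the polymerase alpha catalytic subunit POLA1, its primase partner PRIM1, the clamp loader subunits RFC3 and RFC5, and the single-strand binding protein RPA2. FAM111B stood at 127 against 68.1 CPM, a ratio of 1.86 (1.26 to 2.77), and RPA3, a further part of the RPA complex, had 1.37 (1.1 to 1.72). POLD2 and POLE3, subunits of DNA polymerases delta and epsilon, were near 1, at 1.02 (0.767 to 1.37) and 0.997 (0.754 to 1.32).

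DNA repair genes stood close to the fork genes. Their summed level was 2740.1 against 1965 CPM, a ratio of 1.39 (1.30 to 1.5), and all 16 tested members had ratios above 1, with 5 past the fold, against 4.47% of all genes, and a median of 1.39. UNG, which removes uracil from DNA, had a ratio of 1.84 (1.17 to 2.96). XRCC2, a gene of recombination repair, had 1.86 (1.248 to 2.82). The exonuclease EXO1, BRCA2 and RMI2 had 1.93, 1.63 and 1.87. Members with more UMIs had smaller ratios. PARP1, which senses strand breaks, had 1.32 (1.12 to 1.54), and USP1, the deubiquitinase of FANCD2 and PCNA, had 1.35 (1.1 to 1.67).

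Chromatin assembly and nucleotide supply differed less between the groups. The chromatin list was at 3968 against 3252 CPM, a ratio of 1.22 (1.15 to 1.29). Of 14 tested members CHAF1A and HAT1 were higher past the fold, where 4.47% of all genes were. HAT1, which acetylates new histone H4, stood at 324 against 216 CPM, a ratio of 1.5 (1.2 to 1.88), just at the fold. On reads that had not chosen the cells HAT1 had a ratio of 0.980, and after thinning to 1000 UMIs it had 0.955. The maintenance methyltransferase DNMT1 had 1.39 (1.09 to 1.79), the histone mRNA binder SLBP 1.40 (1.09 to 1.80) and the histone chaperone NASP 1.27 (1.1 to 1.47). The nucleotide list was at 3903 against 3195 CPM, a ratio of 1.22 (1.15 to 1.30). In it 15 of 16 tested members were above 1 and DUT alone was higher past the fold (4.47% of all genes were). Purine genes such as PAICS and GMPS had ratios of 1.14 (0.924 to 1.41) and 1.01 (0.769 to 1.34). TK1, thymidine kinase, had 0.946 (0.671 to 1.34).

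Single histone genes showed no common direction, with 6 of 12 tested members above 1 and 6 below, and a median ratio of 1.02. HIST1H4C, H2AFX and H3F3A were higher past the fold (4.47% of all genes were) and HIST1H1C and HIST1H2AC lower (4.54% were). The summed level was 4377 against 4027 CPM, a ratio of 1.09 (1.03 to 1.15). HIST1H4C supplied 337 of the 2906 UMIs in high and 158 of the 2425 in low cells. In untreated cells the pooled ratio was 1.41 (1.37 to 1.45). H2AFX, the variant phosphorylated at strand breaks, had a ratio of 1.66 (1.04 to 2.70), and the linker histone HIST1H1C had 0.504 (0.296 to 0.839). Of the genes for the replication-independent H3.3, H3F3B was at 0.997 (0.89 to 1.12) and H3F3A at 1.66 (0.91 to 3.14), and the variant H2AFZ was at 1.1 (0.972 to 1.253). Replication-dependent histone mRNAs mostly lack a poly(A) tail, and Drop-seq captures poly(A), so their levels here are those of the captured part.

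The regulators of the G1/S step showed no common direction in the scrambled library. Their summed level was 1787 against 1820.2 CPM, a ratio of 0.982 (0.903 to 1.07), 6 of 12 tested members were above 1 and 6 below, and none was higher past the fold. CCND1, the D-type cyclin made in G1 in response to mitogens, stood at 527 against 707 CPM, a ratio of 0.745 (0.645 to 0.86), lower in high cells though short of the fold. CCND1 supplied 350 of the list's 1186 UMIs in high and 426 of its 1096 in low cells. The summed ratio therefore leans on this gene. CDKN1B, the p27 inhibitor, was lower past the fold at 33.1 against 56.5 CPM, a ratio of 0.587 (0.327 to 1.03), with an interval that includes 1. MYC had 0.704 (0.466 to 1.06), SKP2, which targets p27 for degradation, 1.34 (0.933 to 1.95), and CDK4 0.977 (0.741 to 1.29). CCNE2, the E2F-driven cyclin E, was at 54.2 against 36.5 CPM, a ratio of 1.48 (0.85 to 2.65), and CCNE1 had 24 and 21 UMIs, too few to pass the read minimum. E2F1 likewise fell under the minimum, with 33 against 15 UMIs. The same list in untreated cells had 9 of 18 tested members higher past the fold and none lower. Over all genes of that library 6.97% were higher and 4.54% lower. Its median ratio there was 1.51 and its pooled ratio 1.16.

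Genes of G2 and mitosis were lower in the high cells. Their summed level was 10162 against 12534 CPM, a ratio of 0.811 (0.784 to 0.838), and of 51 tested members 19 were lower past the fold (background 4.54%) and 1, the spindle motor KIF11, was higher, at 79.8 against 43.2 CPM, a ratio of 1.85 (1.14 to 3.08). PLK1, the kinase that drives mitotic entry, had the widest difference of all tested genes, at 12.1 against 111 CPM, a ratio of 0.108 (0.0449 to 0.226), from 8 UMIs in the high and 67 in the low cells. AURKA, the spindle pole kinase, stood at 42.2 against 139.5 CPM, a ratio of 0.302 (0.19 to 0.469). HMMR, which organises spindle microtubules, stood at 64.8 against 193 CPM, a ratio of 0.336 (0.231 to 0.481). Of the 12 lowest genes, 9 are in the G2/M list, and the others are ASPM, DEPDC1 and DIMT1.

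Others in this group were the spindle pole protein ASPM at 33.1 against 108 CPM, a ratio of 0.307 (0.18 to 0.505), and DEPDC1 at 30.1 against 86.4 CPM, a ratio of 0.349 (0.197 to 0.594). The kinetochore proteins CENPE and CENPF had ratios of 0.373 (0.219 to 0.615) and 0.476 (0.368 to 0.612). The mitotic cyclins CCNB1 and CCNB2 had 0.531 (0.406 to 0.689) and 0.447 (0.283 to 0.692). TOP2A, which untangles sister chromosomes, stood at 164 against 321 CPM, a ratio of 0.512 (0.401 to 0.651), and DLGAP5 had 0.428 (0.276 to 0.653), though 1.17 after thinning. Members with more UMIs differed less: the proliferation marker MKI67 had 0.765 (0.632 to 0.925), the securin PTTG1 0.773 (0.652 to 0.915), and calmodulin CALM2 0.688 (0.62 to 0.763). TUBA1B, an alpha tubulin, and HMGB2 were near 1, at 1.1 (1.01 to 1.19) and 0.999 (0.835 to 1.2). DIMT1, an rRNA methyltransferase, was the exception in function among the 12 lowest, at 18.1 against 64.8 CPM, a ratio of 0.279 (0.133 to 0.544). In untreated cells DIMT1 had 1.28 (0.903 to 1.81), an interval that includes 1.

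The G2/M difference depended on how the cells were divided. Dividing within 5 bins of UMIs per cell gave a pooled ratio of 0.866. Leaving out barcodes that end in N gave 0.858, and choosing cells by the 7 even panel genes gave 0.894. The direction was the same in each, and on unused reads it was 0.888 (0.848 to 0.93) and 0.825 (0.787 to 0.865) for the random parts. The licensing list on unused reads was at 1.56 (1.34 to 1.83) and 1.47 (1.252 to 1.72), and the fork list at 1.16 (1.04 to 1.28) and 1.31 (1.18 to 1.45).

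**Figure D3:**
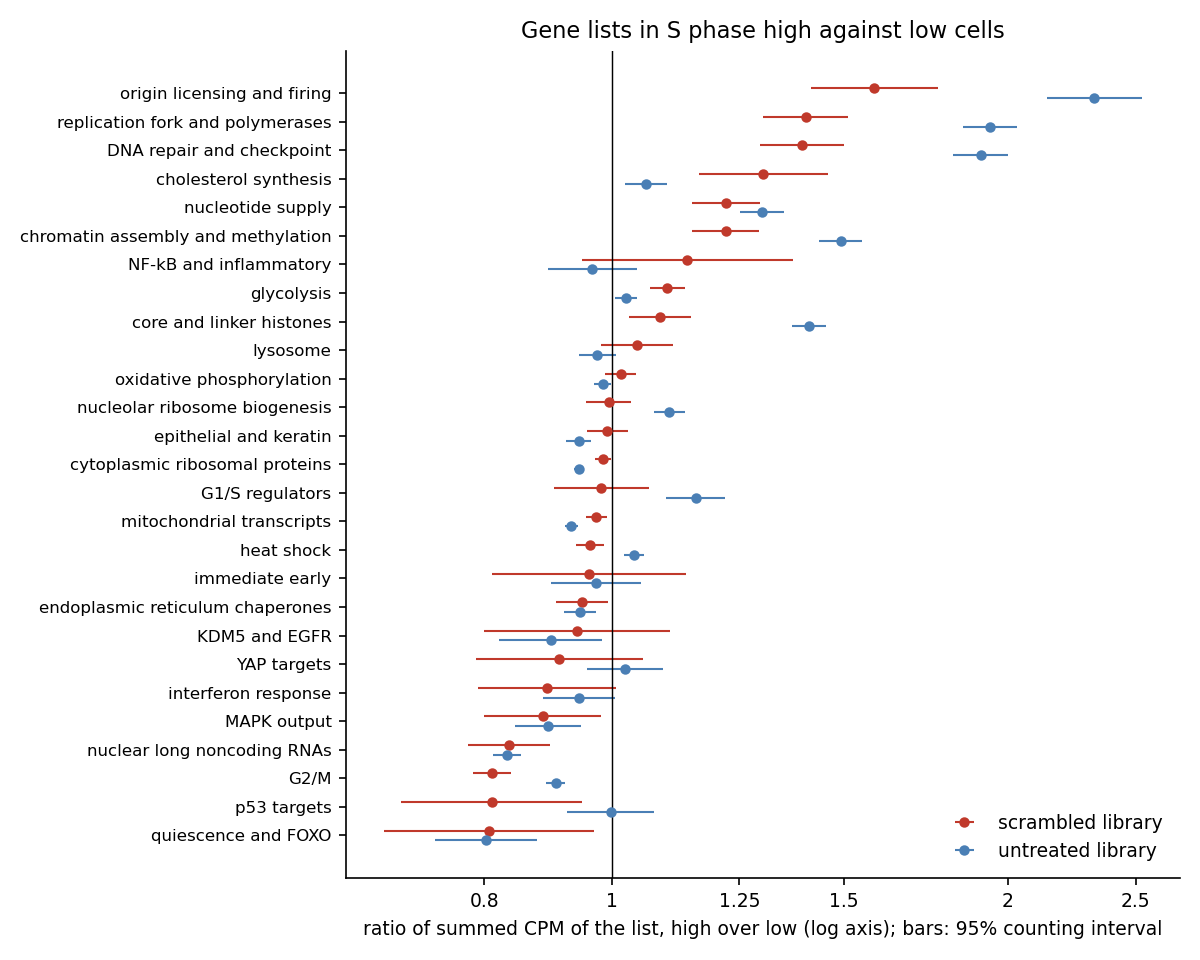
Pooled ratio of high over low cells for each gene list on a log axis, as points with the exact 95% interval for counting error, in the scrambled and the untreated library. The licensing, fork and repair lists lie to the right, at 1.58, 1.40 and 1.39 in scrambled cells, and the G2/M list to the left at 0.811.

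Several large programmes outside the cell cycle were near equal in the groups. Cytoplasmic ribosomal proteins had a pooled ratio of 0.984, mitochondrial transcripts 0.973, oxidative phosphorylation genes 1.02 and keratin and epithelial genes 0.992. None of the 30, 13, 34 and 12 tested members of these lists was past the fold. Nucleolar genes of ribosome assembly stood at 0.994, with FBL, the rRNA methyltransferase fibrillarin, at 1.29 (1.1 to 1.51) and RRP9 alone lower past the fold. Heat shock genes stood at 0.962 and endoplasmic reticulum chaperones at 0.949, with HSPA5 (BiP) at 0.747 (0.66 to 0.844). Lysosomal, interferon and immediate early lists had no member past the fold, at 1.04, 0.892 and 0.961.

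Other lists outside the cell cycle stood further from 1. Cholesterol synthesis genes were at 1129.8 against 867 CPM, a ratio of 1.30 (1.16 to 1.46). Of their 10 tested members 2 were higher past the fold, against 4.47% of all genes, among them ACAT2 at 1.55 (0.884 to 2.80). Glycolytic genes were above 1 in 10 of 10 tested members, at a pooled 1.1. Of the 10, PGAM1 alone was higher past the fold, at 1.67, where 4.47% of all genes were. GAPDH stood at 6488 against 5876 CPM, a ratio of 1.1 (1.06 to 1.15). Nuclear long noncoding RNAs were below 1 in 9 of 9 tested members, at a pooled 0.836, with MALAT1 at 0.892 (0.805 to 0.99) and ZFAS1 alone past the fold at 0.663 (0.552 to 0.797). Targets of p53 were at 0.81, with 2 of 4 tested members lower past the fold (4.54% of all genes were), PLK2 at 0.646 (0.486 to 0.854) and GADD45A at 0.621 (0.425 to 0.903). In untreated cells GADD45A had a ratio of 1.32 and the list 0.998. The quiescence and FOXO list was at 339 against 420.2 CPM, a ratio of 0.807 (0.671 to 0.969), with CDKN1B past the fold and BTG1, an antiproliferative gene, at 0.843 (0.65 to 1.09). CDKN1A, the p53 target that arrests the cycle, had only 5 UMIs in each group. The MAPK list was at 0.886, but CCND1 supplied 350 of its 748 UMIs in high and 426 of its 766 in low cells, with FOSL1 alone higher past the fold at 1.52 (1.1 to 2.12), and the YAP list was at 0.912. In the inflammatory list, at 1.14, TNFAIP2 had 1.63 (1.11 to 2.41), but 0.877 after thinning.

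The genes the study perturbed in its other libraries did not reach the fold here. KDM5A stood at 76.8 against 91.3 CPM, a ratio of 0.841 (0.563 to 1.254). KDM5B stood at 48.2 against 43.2 CPM, a ratio of 1.12 (0.645 to 1.95), on 58 UMIs. EGFR, the target of erlotinib, stood at 340.4 against 360.4 CPM, a ratio of 0.945 (0.781 to 1.14). In the untreated library KDM5B was lower in high cells, at 37.0 against 89.6 CPM, a ratio of 0.413, while KDM5A and EGFR had ratios of 0.988 and 0.995. The interval of KDM5B in scrambled cells starts above the untreated ratio, but the difference between the libraries was not tested.

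The untreated library was divided by its own median in the same way, and shares no cell with the scrambled one. There, 564 of 8092 genes were higher past the fold (6.97%) and 367 lower (4.54%). Of the 196 genes higher in scrambled cells, 142 (72.4%) were above 1 in untreated cells, where 51.7% of all genes tested in scrambled cells were. Past the fold there were 61, which is 31.1% of the scrambled and 10.8% of the untreated list, against 5.04% of all. Of the 199 lower genes, 123 (61.8%) were below 1 in untreated cells, against 48.3% of all. Past the fold were 19, which is 9.55% of the scrambled and 5.18% of the untreated list, against 1.37% of all. Whether the higher and the lower genes differ in this was not tested.

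The division was wider in untreated cells. On unused reads the panel ratio was 2.96 (2.73 to 3.20) there, against 1.55 in scrambled cells. The licensing list was at 2.33 in untreated and 1.58 in scrambled cells, the fork list at 1.94 and 1.40, and repair at 1.91 and 1.39. CDT1 had 4.14 in untreated and 1.42 in scrambled cells, MCM10 4.44 and 1.46, and FAM111B 13.1 and 1.86. The G2/M list was farther from 1 in scrambled cells, with 0.907 in untreated and 0.811 in scrambled cells. Merging untreated barcodes that share their first 11 letters left 725 cells and gave 2.45, 1.98 and 0.934 for licensing, fork and G2/M. Untreated barcodes were shallower, with a median of 2144 UMIs against 4208 in scrambled ones, but the merged untreated cells had a median of 3944 UMIs.

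The spread of the panel share from cell to cell was also wider in untreated cells. After the variance expected from counting was taken off, the coefficient of variation was 37.6% in scrambled and 66.7% in untreated cells (67.1% with barcodes merged). The summed levels of the odd and even panel genes correlated across cells with a Pearson's r of 0.373 over 222 scrambled and 0.481 over 822 untreated cells, as a description, since cells of 1 library share its depth. Untreated cells without a panel UMI numbered 122 of 822, against 7 of 222. The lowest quartile of scrambled cells stood at 913 CPM of the panel, and that of untreated cells at 238 CPM. The panel share itself formed these quartiles. Cells without a panel UMI and a low first quartile also come more easily at a lower depth. Untreated barcodes were the shallower ones (median 2144 against 4208 UMIs), so these last values only describe the cells and do not measure the spread.

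Dividing the scrambled cells into 4 quartile groups of the panel share showed where the low cells stood. From the lowest to the highest quartile the licensing list was at 610.1, 1036, 1325 and 1314 CPM, and the fork list at 1425, 2361, 2650.5 and 2765 CPM. Both were lowest in the first quartile and differed little between the third and the fourth. The third group held 1206 panel UMIs at 2965 CPM and the fourth 1067 at 4150 CPM, so the fourth held fewer UMIs in all. CDC6 stood at 56.4, 119, 155 and 156 CPM. In the untreated library CDC6 climbed over all quartile groups, at 12.4, 34.7, 68.0 and 125 CPM. E2F1, a factor that drives this programme and is its own target, stood at 21.2, 28.3, 51.6 and 46.7 CPM in scrambled and at 5.50, 11.6, 24.9 and 54.4 CPM in untreated cells. E2F1 and CDC6 were singled out after their values were seen.

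The G2/M genes were higher in both lower than in both upper scrambled quartile groups, at 13026, 12095, 10051 and 10337 CPM summed. In untreated cells they peaked in the second quartile, at 8953, 20903, 17076 and 11481 CPM. PLK1 was at 138, 87.9, 7.38 and 19.4 CPM in scrambled and 97.6, 251, 144 and 38.8 CPM in untreated quartile groups. The lowest quartile of scrambled cells was the highest in the summed list, and that of untreated cells the lowest. PLK1 itself, like AURKA (78.4, 245, 125 and 27.7 CPM) and CCNB1 (131, 336, 203 and 56.6 CPM), was lowest in the fourth untreated quartile. TOP2A was likewise higher in both lower scrambled quartile groups, at 310.3, 329.6, 128 and 222 CPM, and lowest in the first untreated quartile, at 339.6, 1088, 844 and 397 CPM. HIST1H4C was lowest in the first quartile of both, at 130.5, 379.8, 452 and 595 CPM and 521, 1746, 2669 and 2323 CPM.

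**Figure D4:**
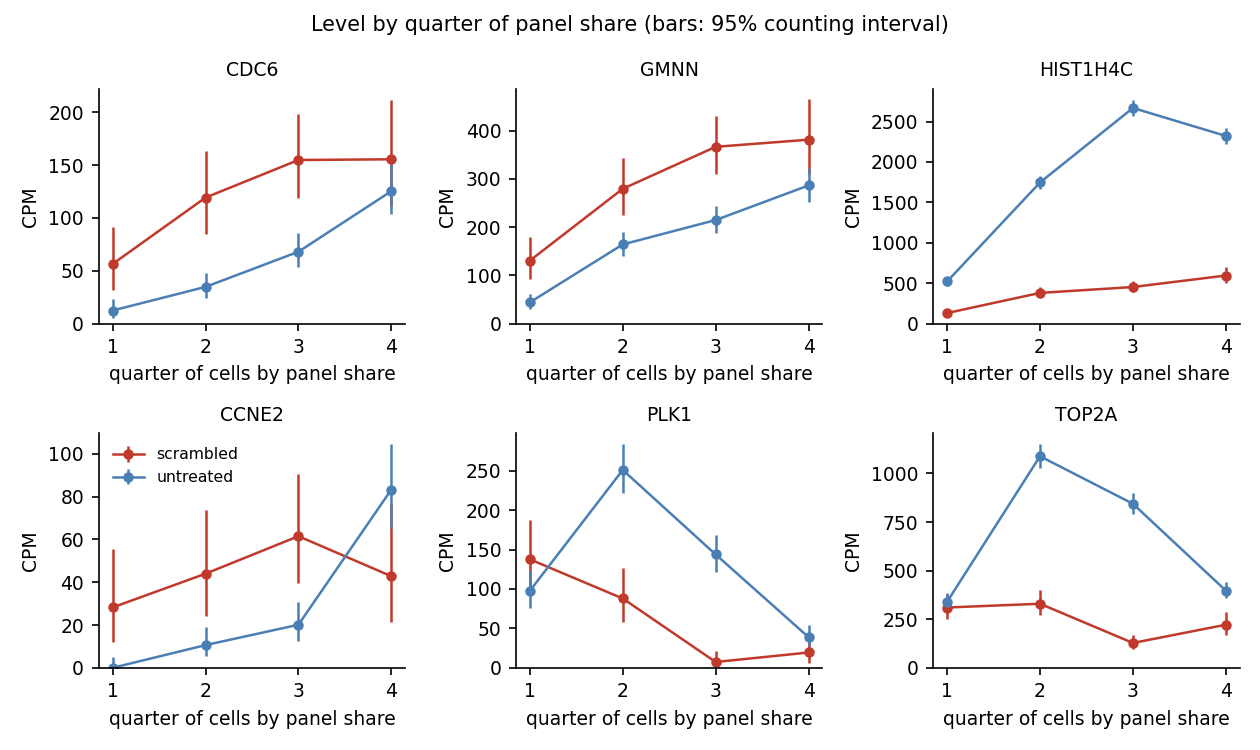
Pooled level (CPM) of 6 genes in quartile groups of the panel share, from lowest to highest, in the scrambled and untreated libraries, with exact 95% intervals for counting error. PLK1 and TOP2A are higher in both lower scrambled quartile groups and peak in the second untreated one, while CDC6 and GMNN are lowest in the first of both libraries.

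Cells were also placed by panel share and G2/M share together, each at its median, so both shares form the groups and are not findings. In scrambled cells, 51 were low in both, 60 high in the panel alone, 51 high in both and 60 high in G2/M alone. In that order the untreated groups held 219, 192, 219 and 192 cells. PLK1, a member of the G2/M list, stood at 3.54, 11.5, 12.7 and 207 CPM in scrambled and 5.65, 9.85, 156 and 371 CPM in untreated cells. Among scrambled cells with high G2/M genes, those with a high panel share thus had little PLK1, where the same untreated group had 156 CPM. AURKA stood at 24.8, 31.6, 53.8 and 241 CPM in scrambled cells, low in the doubly high group as well.

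Genes outside both sets described the group low in both. In untreated cells this group had low levels of 2 licensing genes: CDC6 stood at 17, 124, 73.3 and 34.1 CPM and GMNN at 55.4, 299, 211 and 174 CPM. The summed G1/S regulators of untreated cells stood at 1313, 1759, 1701 and 1668 CPM. In scrambled cells the same group was nearer the others, with CDC6 at 109.6, 167, 142 and 72.0 CPM and GMNN at 202, 371, 374 and 216 CPM. CCNE2 was at 10.2, 92.3, 18.5 and 2.27 CPM in untreated and at 38.9, 51.7, 57.0 and 34.4 CPM in scrambled cells. The scrambled groups differed less for these genes. HIST1H4C was highest in the doubly high group in both, at 187, 359, 671 and 329 CPM and 418, 1319.7, 3361 and 2069 CPM. CCND1 had its lowest scrambled level there too, at 661, 595, 453 and 748 CPM. KDM5B was at 28.3, 48.9, 47.5 and 56.4 CPM in scrambled and 106, 36.9, 37.1 and 72.8 CPM in untreated cells, highest in the untreated group low in both. These genes were singled out after their values were seen.

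**Figure D5:**
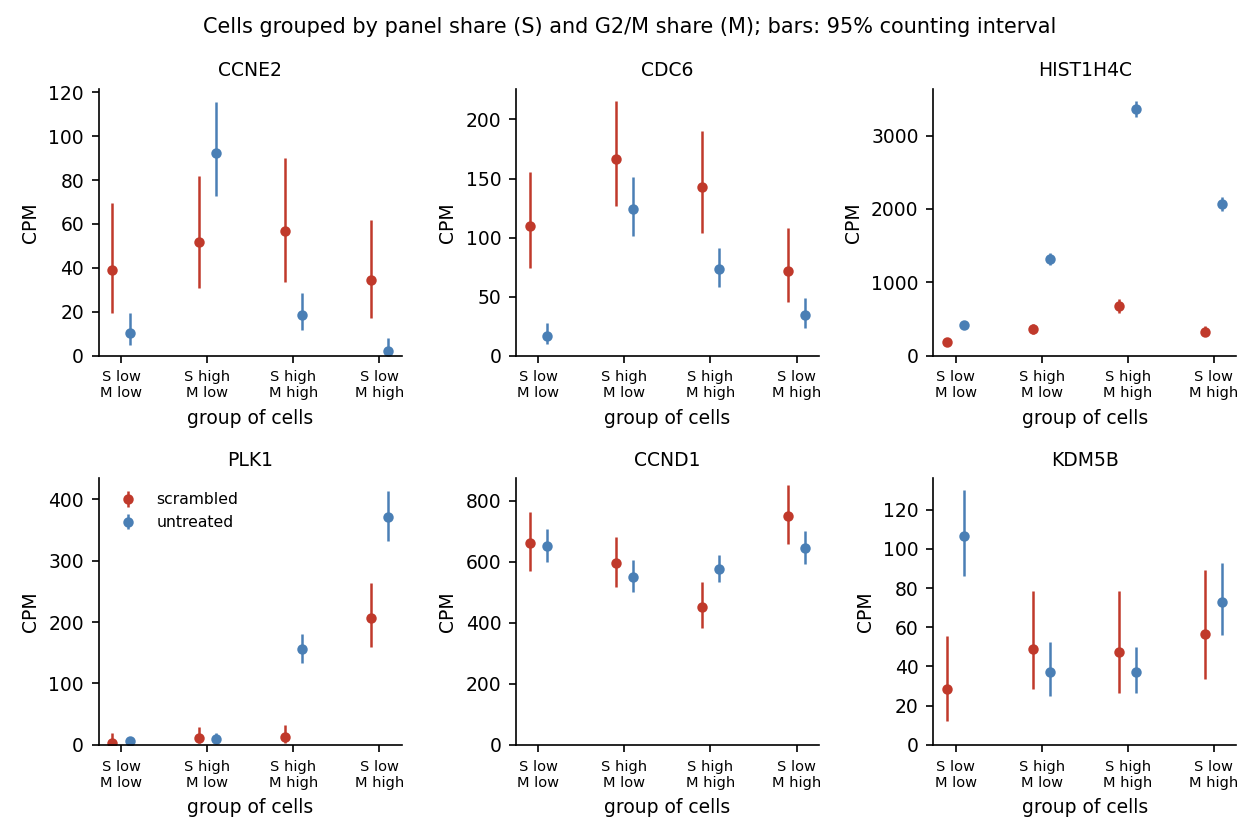
Pooled level (CPM) of 6 genes in the 4 groups of cells formed by the medians of the panel and G2/M shares, in the scrambled and untreated libraries, with exact 95% intervals for counting error. PLK1 is highest in scrambled cells in the group low in the panel and high in G2/M, at 207 CPM.

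The scrambled median itself gives a scale for the other libraries. Without thinning it was 2453 CPM, and 33.0% of untreated cells lay above it. After each cell was thinned to 1000 UMIs, the scrambled median was 2 panel UMIs. Then 49.1% of scrambled and 31.9% of untreated cells lay above it (exact binomial interval 28.7 to 35.2%). With erlotinib almost none did: 0 of 164 cells with CPI-455, which allows up to 2.22%, 0 of 105 with KDM5A cDNA, which allows up to 3.45%, 1 of 332 with KDM5A shRNA (0.301%) and 1 of 124 with both shRNAs (0.806%, and 0 without thinning). The pooled panel level was 2555 CPM in scrambled, 1969 CPM in untreated and between 119 and 173 CPM in erlotinib cells. In those libraries the median cell had no panel UMI, so dividing at the median would separate cells with a panel UMI from cells without. The former had a median of 5883 UMIs and the latter 2607 in the CPI-455 library, and no comparison of genes was drawn from them.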

How the data were processed

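Drop-seq of PC9 cells gave 1 gene-by-barcode table of deposited UMI counts per library, 6 in all. The authors used STAR and FastQC with GRCh37.p13 (hg19), per the submitters' processing notes, and the counting tool and the choice of barcodes are not given in the sources used here. The deposited counts are whole numbers and not normalized, and all were used as they stand.

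A cell was kept from 1000 UMIs upwards if no more than 20% of them were mitochondrial, and the scrambled and untreated cells were each divided at their median panel share. Counts were summed over each group and scaled to CPM. Ratios carry exact conditional (Clopper-Pearson) 95% intervals, which cover counting error only, since cells of 1 library are not replicates. There is no test and no p-value. Genes outside the panel with at least 50 UMIs over both groups were compared. The text names the 14 panel genes, the 12 genes highest and 12 lowest by the interval bound nearest 1, up to 8 members of the main lists and 4 of the others by UMIs, KDM5A, KDM5B and EGFR, besides list members past the fold and genes said to be singled out. The members and lists were chosen with earlier results of these data known.

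Depth was 1265980 UMIs in the 222 scrambled and 3708703 in the 822 untreated cells. Genes outside the tables, KDM5C among them, were not analysed here. A few list members are not reported here by name. Promoters came from RefSeq (GRCh38.p14), matched by symbol or synonym for 3547 of 4382 genes (80.9%). The set of 196 higher genes had a promoter for 77.0% only, so the motif check over it is void and not reported. The scripts were tested on simulated data, and used Python with numpy 2.4.6, pandas 2.3.3, scipy 1.17.1 and matplotlib 3.10.9, and R 4.3.3 with edgeR 4.0.16 for the TMM factors alone. Alternatives covered the limits on cells and genes, the fold, scaling, thinning, depth bins, the panel divided in 2 and the reads divided in 2 at random. Merging barcodes by their first 11 letters, leaving out for each gene the cell with the most UMIs and a minimum of 200 UMIs were chosen after seeing the data.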

Additional observations from a re-analysis of the deposited data

How the results depend on the processing

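The counts of genes past the fold followed the read minimum and the fold. Against 196 higher and 199 lower genes, a minimum of 20 UMIs per gene gave 673 and 687, 100 UMIs 53 and 59, 200 UMIs (added after seeing the data) 10 and 11, and no minimum 4752 and 4362. A milder fold gave 658 and 678, and a fold of 2 gave 24 and 30. Weighting every cell equally gave 365 and 324. Thinning each cell to 1000 UMIs left only 791 genes at the minimum of 50 UMIs, against 4382. Of the 791, 36 and 22 were past the fold, and 1 and 3 were among the original genes. Dividing on a random part of the reads and measuring on the other part left 2512 genes. It gave 106 and 112 past the fold, with 28 and 26 shared. An original gene that fell under the minimum could not be shared, so these overlaps also reflect lost reads. Settings with similar counts also changed which genes passed. With 4382 genes tested, 91 and 100 were shared with the 7 odd panel genes, and 93 and 81 with the 7 even ones. Without barcodes ending in N, 90 and 95 were shared (3518 genes tested), and between tertiles 67 and 75 (3019 tested). The pooled ratios of the licensing, fork, repair and G2/M lists, the only lists recomputed, kept their direction under all alternatives run. Taking the upper against the lower tertile of cells gave 2.02 for licensing, 1.75 for the fork, 1.75 for repair and 0.782 for G2/M. Thinning gave 1.22 for licensing, 1.2 for repair and 0.915 for G2/M. The random part gave 1.16 for the fork and 0.888 for G2/M, and the 7 even panel genes gave 1.28 for repair and 0.894 for G2/M. The G2/M ratio was 0.866 within depth bins and 0.858 without barcodes ending in N. For single genes, a change of direction was counted only where the named gene was past the fold. After thinning, DSN1 (0.754), DLGAP5 (1.17), HAT1 (0.955) and TNFAIP2 (0.877) changed direction. On the random part, CHAF1A (0.854), EXOSC9 (0.985) and HAT1 (0.980) did. The cause was not tested. These were 7 values over 6 genes. In all, 2415 values over 151 named genes were computed, but those of genes short of the fold could not count, so no rate follows. Without changing direction by this rule, 172 values over 98 genes left the interval of the main ratio. Named genes short of the fold were not followed in this way, and some crossed 1. LCN2, for example, went from 1.04 to 0.942 without the cell with the most UMIs of the gene. The share of double shRNA cells above the scrambled median was 0 without thinning. Merged barcodes in the untreated library gave 602 higher and 379 lower genes. Ratios of genes with few reads are limited by depth, and 1 library per condition leaves the spread between cultures unknown. No paired analysis was possible because each condition has 1 library.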
